A study of Mus musculus with 18 samples.

Results

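Farnesylated proteins are the substrates of farnesyltransferase (FT), and the mRNA of 9 genes that encode such proteins was followed in the frontal cortex of mice with and without FT in forebrain neurons. The genes were taken by name, as proteins known to be farnesylated, with earlier results of these data known: Hras, Nras, Rasd2, Lmna, Lmnb1, Lmnb2, Dnaja1, Pex19 and Inpp5e, 9 of the 55487 genes counted. All 9 passed the filter on low counts that left 17414 genes for testing. The 18 mice formed 3 groups of 6, each with 3 females and 3 males aged 9 to 10 months: APP/PS1 mice, which carry the transgenes of this line and develop amyloid deposits, APP/PS1/FTnKO mice, in which CamKIIα-Cre in addition removes the FT β-subunit, and WT mice. By the breeding described in the study's methods, the animals were littermates homozygous for floxed alleles of the FT β-subunit, the controls lacking Cre, whereas the record of the data calls the WT mice C57BL/6J, so that the background of the WT group is not settled here. CamKIIα-Cre acts in forebrain excitatory neurons, and glia, interneurons and vessels of the same cortex keep their FT.

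Farnesylation adds an isoprenoid lipid, taken from farnesyl pyrophosphate, to a cysteine close to the C-terminus of a protein, within a motif called the CaaX box (a cysteine, 2 residues that are often but not always aliphatic, and a variable last residue). The lipid lets a cytosolic protein attach to membranes, which H-Ras needs for signalling and the lamins for reaching the nuclear envelope. The modification takes place on the finished protein, so that mRNA counts report the supply of each substrate and say nothing about how much of it carries the lipid.

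The end of each coding sequence shows the feature that the 9 genes share. The last 30 coding bases before the stop codon of the longest complete model (GENCODE vM21, GRCm38) are printed 5′ to 3′ on the coding strand, with the 4 codons of the CaaX box in capitals. That of Lmnb1 is not shown.
Hras: ggctgcatgagctgcaaaTGTGTGCTGTCC
Nras: ggttgtatggggctgcccTGTGTGCTGATG
Rasd2: gcccgagagagggacaagTGTAGCATCCAG
Lmna: agccagagctcccagaacTGCAGCATCATG
Lmnb2: aggactacctcaaggggcTGCCGACTGATG
Dnaja1: cccagaggtggcgttcagTGTCAGACCTCT
Pex19: ggtgctaatggcgaacagTGTCTGATCATG
Inpp5e: cagagctccagtgcagttTGCACCGTGTCC

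A cysteine codon (TGT or TGC) opened the box in all 9 genes, Lmnb1 included, and stood at the same place in 650 of 21570 protein-coding genes with a complete model (3.01%). The final codon, whose residue steers a protein to FT or to the related enzyme GGT, which attaches a longer lipid, was ATG in Nras, Lmna, Lmnb2 and Pex19, TCC in Hras and Inpp5e, TCT in Dnaja1 and CAG in Rasd2. Not every transcript of these genes encodes the box: it was present in 2 of 5 complete coding models of Hras, 3 of 5 of Nras, 1 of 3 of Lmna and 1 of 2 of Inpp5e. For Lmna the split is well known, since lamin A is made from a farnesylated precursor while lamin C, from the same gene, lacks the motif. The counts are per gene and do not separate these transcripts.

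The Hras window lies at chr7:141191351-141191380 in exon 5 of 6, that of Nras at chr3:103063417-103063446 in exon 5 of 7 and that of Rasd2 at chr8:75222216-75222245 in exon 3 of 3. Lmna is read on the minus strand, with the last 24 bases of the window at chr3:88482077-88482100 in exon 12 of 12. The Lmnb2 window is at chr10:80902862-80902891, also in exon 12 of 12, that of Dnaja1 at chr4:40732914-40732943 in exon 9 of 9, that of Pex19 at chr1:172134258-172134287 in exon 8 of 8 and that of Inpp5e at chr2:26397842-26397871 in exon 10 of 10. Exons of Dnaja1 overlap those of Smu1 on the opposite strand by 608 bases, and exons of Inpp5e overlap those of Pmpca on the opposite strand by 874 bases. The libraries kept strand, but the sources used here do not give the strand setting of the counting, so that reads in these stretches may belong to either gene.

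The total counts per mouse were 15925432 to 21030935, and Lmnb1, with the fewest reads of the 9 genes, had 117 to 173 counts in the mice of the tests. WT mouse 19622 lay apart from the rest, with a mean distance from its own genotype of 4.31, against 1.92 to 2.51 for the others, in multi-dimensional scaling on 500 genes. The study left out a WT mouse on such a plot without naming it. Here mouse 19622 was kept out of the tests and is described apart, so that the comparisons rest on 17 mice. The transgene was visible in the App count, which was 1492 to 1613 normalized CPM (counts scaled to a common library size) in WT mice and 2117 to 3640 in the 12 mice with the transgenes. Fntb, the gene of the deleted β-subunit, measured 7.84 to 14.7 normalized CPM in APP/PS1/FTnKO, 14.2 to 32.1 in APP/PS1 and 14.1 to 32.2 in WT mice. The knockout range overlapped that of APP/PS1 mice at its edge. Among the controls, APP/PS1 mice 19553 and 19554 (28.7 and 32.1) and WT mice 19718 and 19721 (32.2 and 30.8) stood apart from the other 7 (14.1 to 17.1). The difference from APP/PS1 mice (log2 fold change -0.77 ± 0.26, SE) did not pass the threshold (edgeR adjusted p = 0.251). Against WT mice it was -0.93 ± 0.27 and did not pass either (edgeR adjusted p = 0.0658). Fntb reads from cells outside the reach of the Cre, and from exons outside the floxed segment, are part of this count. In bulk cortex, fewer cells of a type and less RNA per cell cannot be told apart.

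Per kilobase of exon, the order of the levels was Rasd2, Hras, Dnaja1, Pex19, Nras, Inpp5e, Lmna, Lmnb2 and Lmnb1. Median values over the 17 mice ran from 67.1 CPM per kilobase for Rasd2 through 28.2 for Hras to 2.66 for Lmnb1. The ranges of Hras, Dnaja1 and Pex19 overlapped with their neighbours in this order, as did those of Nras, Inpp5e, Lmna and Lmnb2. Rasd2 stood above Hras, Pex19 above Nras and Lmnb2 above Lmnb1 without overlap. The lengths are the union of all annotated exons, which is long for Dnaja1 (8629 bases) and short for Lmnb1 (2962 bases), and a level per kilobase depends on them.

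**Figure D1:**
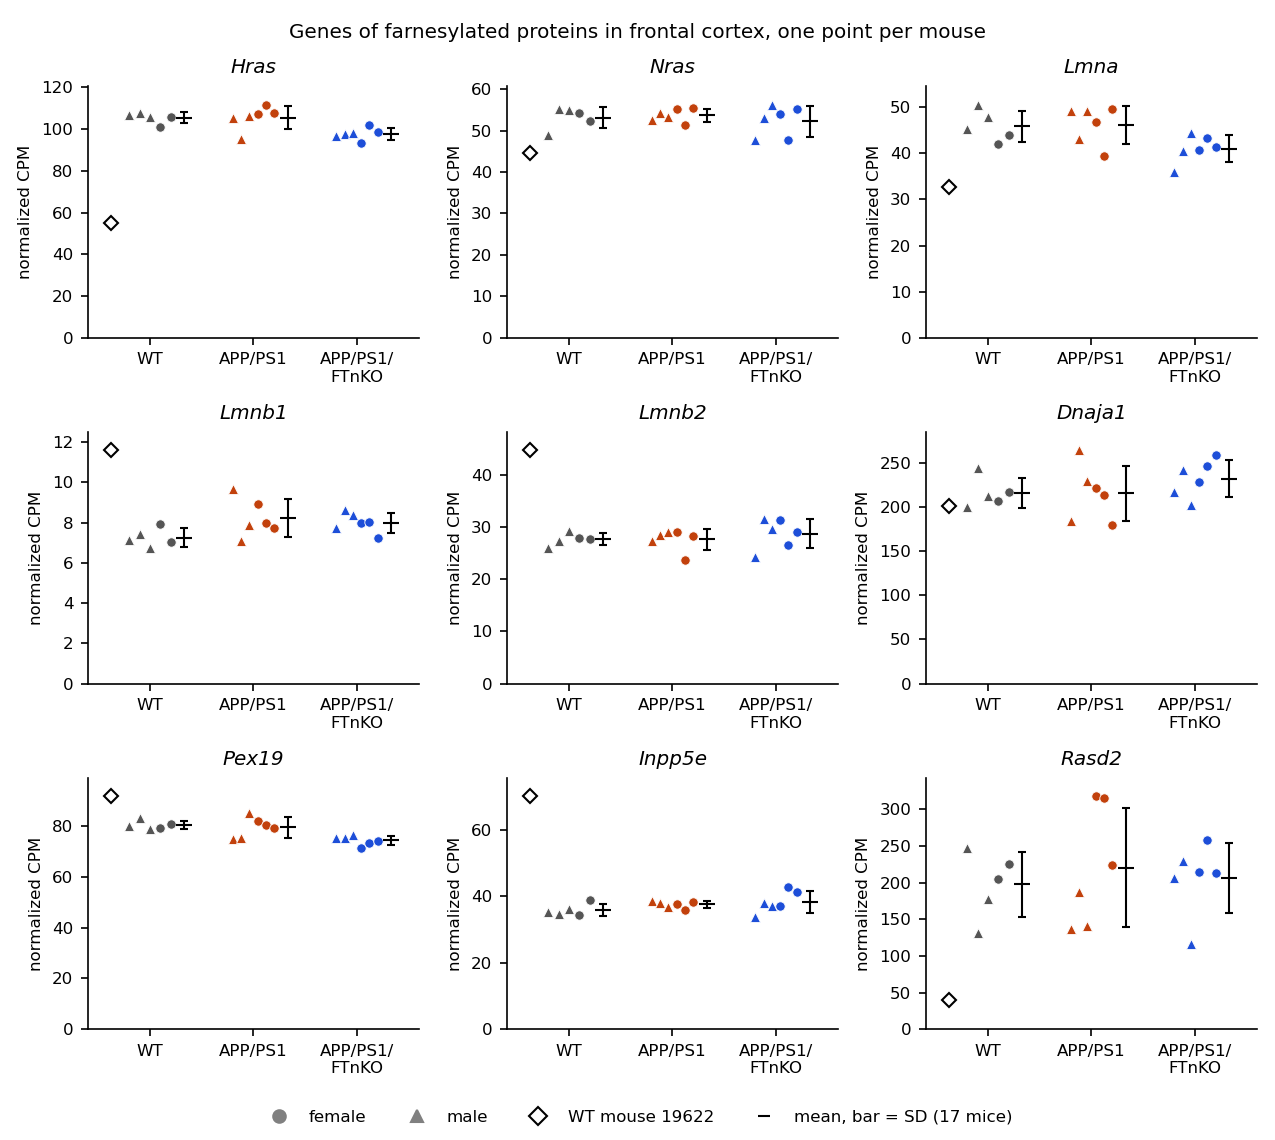
Normalized CPM (vertical axis, from 0) of the 9 genes in each mouse by genotype (horizontal axis), with circles for females, triangles for males, and the mean and SD of the mice in the tests (5 WT, 6 APP/PS1 and 6 APP/PS1/FTnKO). The open diamond is WT mouse 19622, scaled with all 18 mice, which lies outside the other mice in every panel except that of Dnaja1; Hras in the knockout mice was 93.4 to 101.8, and Rasd2 spread from 116 to 318.

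Whether removal of neuronal FT in APP/PS1 mice alters the mRNA of its substrates was asked first. None of the 9 genes passed the threshold (edgeR adjusted p of 0.05) in APP/PS1/FTnKO against APP/PS1 mice, where 0.327% of all genes did. DESeq2 called 0 of the 9 as well, and 246 of the 33091 genes it tested. No gene of the 9 had groups of mice without overlap here, against 0.970% of all genes. At an unadjusted p below 0.05, edgeR found 3 of the 9 genes, Hras, Lmna and Pex19, against 11.5% of all genes, and the estimates of all 3 were below 0. The median log2 fold change of the 9 genes was -0.04, with 3 higher and 6 lower, beside -0.0016 for all genes. The largest of the 9 differences, that of Lmna, was a fold of 0.889.

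H-Ras, N-Ras and Rhes are small GTPases at the head of signalling chains. Hras encodes H-Ras, which passes signals from growth factor receptors to the kinase ERK and depends on farnesylation for its place on membranes. Hras measured 93.4, 97.9 and 101.8 normalized CPM as lowest, median and highest of the 6 APP/PS1/FTnKO mice. In the 6 APP/PS1 mice the corresponding values were 95.2, 107 and 112. The WT mice had 107, 108, 106, 101.0 and 106. Of the APP/PS1 mice, 5 lay above every knockout mouse, and mouse 19619 fell within their range, while the WT and knockout ranges met only at their ends. The knockout was lower by a log2 fold change of -0.11 (SE 0.040, 95% interval -0.19 to -0.027) against APP/PS1 mice, which did not pass (edgeR adjusted p = 0.284). Against WT mice it was -0.11 as well (SE 0.042, edgeR adjusted p = 0.129), and APP/PS1 and WT mice had means of 105.5 ± 5.53 and 105.4 ± 2.58 (SD, n = 6 and 5).

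Hras was also among the most even of the genes tested. Its SD between mice of a genotype was 0.056 on the log2 scale, smaller than in all but 297 of the 17414 genes, for which the median SD was 0.17. The ranking is over genes of all levels, and genes of a like level were not compared apart.

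Nras encodes N-Ras, a close relative of H-Ras that can receive the longer lipid of GGT when FT is blocked. Nras measured 47.6 to 56.3 normalized CPM in the knockout, 51.5 to 55.4 in APP/PS1 and 48.9 to 55.3 in WT mice. The 3 groups overlapped, and the knockout and WT ranges reached below that of APP/PS1 mice. The difference between knockout and APP/PS1 mice was -0.04 (95% interval -0.15 to 0.069, edgeR adjusted p = 0.831).

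Rasd2 encodes Rhes, a Ras-like protein known for its high level in the striatum, where it modulates dopamine and mTOR signalling. In APP/PS1/FTnKO mice Rasd2 was lowest at 116, had a median of 214 and was highest at 259 normalized CPM. In APP/PS1 mice it was lowest at 137, with a median of 205 and a highest value of 318. The WT mice had 247, 132, 178, 205 and 226. The 3 groups overlapped over most of their range. The knockout differed from APP/PS1 mice by -0.05 (SE 0.18, 95% interval -0.42 to 0.33), an interval that spans folds of 0.746 to 1.25.

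Lamins form the meshwork under the inner nuclear membrane. Lmna encodes lamins A and C. Its lowest, median and highest values were 36.0, 41.0 and 44.4 normalized CPM in APP/PS1/FTnKO mice. They were 39.4, 48.0 and 49.5 in APP/PS1 mice. The WT mice had 45.2, 50.5, 47.8, 41.9 and 43.9. The knockout mice lay toward the low end, and the ranges of all 3 groups overlapped. The log2 fold change was -0.17 (SE 0.066, 95% interval -0.31 to -0.030, edgeR adjusted p = 0.327) against APP/PS1 and -0.16 (SE 0.070, edgeR adjusted p = 0.199) against WT mice.

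The B-type lamins keep their farnesyl group for life, unlike lamin A, from whose precursor the lipidated end is cut off. Lmnb1, which encodes lamin B1, had the lowest level of the 9 genes, with 7.22 to 8.61 normalized CPM in knockout, 7.09 to 9.69 in APP/PS1 and 6.72 to 7.93 in WT mice. Its APP/PS1 mean of 8.22 ± 0.934 (SD, n = 6) stood beside a WT mean of 7.26 ± 0.456 (n = 5), and the log2 difference was 0.18 (SE 0.091, 95% interval -0.013 to 0.37, edgeR adjusted p = 0.391). Between knockout and APP/PS1 mice Lmnb1 differed by -0.04 (95% interval -0.22 to 0.14, edgeR adjusted p = 0.906). Lmnb2, which encodes lamin B2, measured 24.3 to 31.5 in knockout, 23.6 to 29.0 in APP/PS1 and 26.0 to 29.3 in WT mice. Its difference between knockout and APP/PS1 mice was 0.06 (95% interval -0.086 to 0.20, edgeR adjusted p = 0.803).

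Dnaja1 encodes HDJ-2, a J-domain co-chaperone of Hsp70 whose shift on gels is a common readout of farnesylation. It measured 202 to 259 normalized CPM in knockout, 180 to 264 in APP/PS1 and 200.4 to 244 in WT mice. The groups overlapped throughout, and the log2 fold change between knockout and APP/PS1 mice was 0.11 (SE 0.086, 95% interval -0.072 to 0.29, edgeR adjusted p = 0.679).

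Pex19 encodes the cytosolic receptor that carries newly made membrane proteins to peroxisomes. Its lowest, median and highest values were 71.2, 74.6 and 76.2 normalized CPM in APP/PS1/FTnKO mice. In APP/PS1 mice they were 74.6, 79.8 and 84.8. The WT mice had 79.7, 83.1, 78.9, 79.0 and 80.6. Every WT mouse lay above every knockout mouse, and 2 APP/PS1 mice (16975 and 19619, both male) lay within the knockout range. The log2 fold change was -0.10 (SE 0.040, 95% interval -0.18 to -0.013, edgeR adjusted p = 0.357) against APP/PS1 and -0.11 (SE 0.041, 95% interval -0.20 to -0.025, edgeR adjusted p = 0.127) against WT mice. Pex19 varied still less than Hras, with an SD of 0.051 on the log2 scale that only 185 of the 17414 genes, again of all levels, undercut.

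Inpp5e encodes a phosphoinositide 5-phosphatase that is held in primary cilia by its lipid anchor and whose loss causes Joubert syndrome. It measured 33.7 to 42.7 normalized CPM in knockout, 35.8 to 38.6 in APP/PS1 and 34.4 to 38.8 in WT mice. The difference between knockout and APP/PS1 mice was 0.03 (95% interval -0.081 to 0.14, edgeR adjusted p = 0.882).

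**Figure D2:**
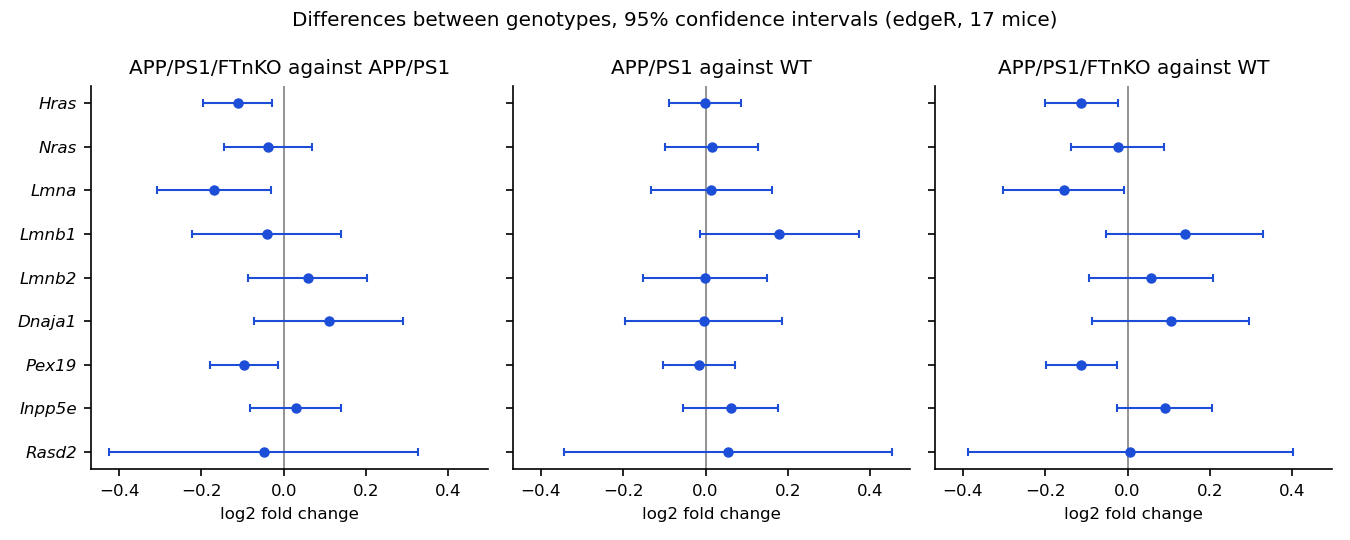
Log2 fold change (horizontal axis) of the 9 genes in each genotype comparison, with points for the edgeR estimate in 17 mice and bars for its 95% interval. The intervals of Hras, Lmna and Pex19 lie below 0 in both comparisons of the knockout, with estimates of -0.10 to -0.17, although none of the 9 genes passed after adjustment over all genes.

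The APP/PS1 against WT comparison asks what amyloid pathology does to the substrates, and that of APP/PS1/FTnKO against WT mice how far the double change leaves them from the controls. In APP/PS1 against WT mice edgeR and DESeq2 called 0 of the 9 genes, with edgeR calling 1.5% of all genes and DESeq2 454 of 33091. Of the 9, 0 had an unadjusted p below 0.05 in edgeR against 14.0% of all genes, and 0 had groups without overlap against 2.40%. Estimates for 8 of the 9 lay between -0.02 and 0.06, and the ninth was Lmnb1. In APP/PS1/FTnKO against WT mice both tools called 0 of the 9, with edgeR calling 3.87% of all genes and DESeq2 1304 of 33091. Here 3 of the 9, Hras, Lmna and Pex19, had an unadjusted p below 0.05 in edgeR against 22.1% of all genes. Pex19 was the 1 gene of the 9 whose groups of mice did not overlap, against 5.60% of all genes. Both knockout comparisons use the same 6 APP/PS1/FTnKO mice, and each pair of comparisons shares a group, so that like values for a gene in them are not separate observations. An adjusted p above 0.05 does not show that a substrate was the same in 2 genotypes; the intervals give the sizes that remain possible.

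Cell type markers were read in the same mice. The summed level of 10 excitatory neuron markers was 3459 to 5245 normalized CPM in knockout, 4102 to 6329 in APP/PS1 and 4748 to 6540 in WT mice. Without Camk2a, whose promoter drives the Cre, the sums were 1162 to 1589, 1321 to 2115 and 1554 to 2169. Against WT mice 10 of the 10 markers had lower estimates in the knockout and 1 of them, Slc17a7, passed (log2 fold change -0.46, edgeR adjusted p = 0.0396), whereas against APP/PS1 mice 5 of 10 were lower and 0 passed in edgeR, with 2 of 10 at an unadjusted p below 0.05. The sum of 7 microglial markers ran from 458 to 777 in APP/PS1 mice, from 360 to 593 in the knockout and from 340 to 381 in WT mice, and none of the markers of either list was at 0 in every mouse of a group. Against WT mice edgeR called 4 of the 7 as higher in APP/PS1 and 2 of the 7 as higher in the knockout, and 0 in knockout against APP/PS1 mice, where 7 of 7 had lower estimates and 4 an unadjusted p below 0.05. Of 8 markers of plaque-associated microglia, 7 were called as higher in APP/PS1 and 7 in knockout mice, each against WT. Of 7 astrocyte markers, 1 was called as higher in each of these comparisons, Gfap. The estimates of 7 of 7 interneuron markers were higher in knockout than in APP/PS1 mice, 1 at an unadjusted p below 0.05. They were lower for 7 of 7 in APP/PS1 against WT mice, and edgeR called 0 in either comparison. Of 4 tested choroid plexus markers, edgeR called 0 in knockout against APP/PS1 mice, with 3 at an unadjusted p below 0.05, but the sum of the choroid plexus markers was 458 normalized CPM in APP/PS1 mouse 19554 and 12.8 to 39.5 in the other 5 APP/PS1 mice, with group medians of 15.7 in APP/PS1 and 13.9 in knockout mice. The part of these marker levels in the values of Hras, Lmna and Pex19 was not tested. With the RNA integrity number as a covariate, which was 7.6 to 8.7 in knockout, 7.7 to 8.7 in APP/PS1 and 8.5 to 8.8 in WT mice, the 3 genes stayed lower in the knockout than in APP/PS1 mice, by -0.10, -0.20 and -0.10 on the log2 scale.

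Rasd2 differed from the other 8 genes in how far it varied between mice of the same genotype. Its SD on the log2 scale was 0.44, larger than in 16512 of the 17414 genes, and its highest mouse had 2.74 times the level of the lowest. The summed level of 13 striatal markers (among them Drd1, Drd2, Adora2a and Penk, and not Rasd2) varied as widely, 2.76-fold, from 1086 to 2992 normalized CPM. These genes mark striatal neurons, although cortex expresses several of them too, and their sum ran from 1086 to 2377 in the knockout, from 1123 to 2992 in APP/PS1 and from 1222 to 2295 in WT mice.

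Rasd2 followed this sum closely. Across the 17 mice Pearson's r of the log2 values was 0.974 and Spearman's rho 0.949, each with a two-sided permutation p of 1e-05, the smallest that 100000 resamples can give. Without APP/PS1 mice 19554 and 19553, farthest from the median sum, r was 0.962 and rho 0.929. Within the 6 APP/PS1 mice r was 0.974 (exact permutation p = 0.00278) and rho 0.943 (exact permutation p = 0.0167). Within the 6 knockout mice r was 0.993 (exact permutation p = 0.00556) and rho 0.829 (exact permutation p = 0.0583). Adjusted by Benjamini-Hochberg over these 4 relations, the permutation p of r was 2e-05, 2e-05, 0.00371 and 0.00556, and with 5 mice WT alone was not given a value. Rasd2 amounted to 8.98 to 12.2% of the striatal sum in the 17 mice, with a median of 10.6%, and to 9.61% in WT mouse 19622, in which the sum was 415 normalized CPM. The points share libraries and scaling, and the share of striatal tissue in each dissection was not measured.

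**Figure D3:**
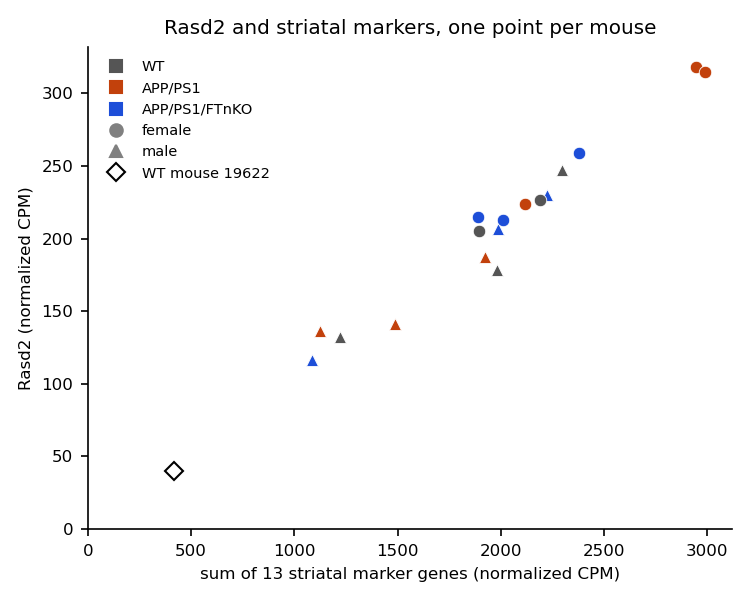
Rasd2 (vertical axis, normalized CPM) against the summed level of 13 striatal markers (horizontal axis, normalized CPM), 1 point per mouse, coloured by genotype, with circles for females, triangles for males and an open diamond for WT mouse 19622. The mice lie along a line on which Rasd2 is 8.98 to 12.2% of the sum, the genotypes are mixed along it, and APP/PS1 females 19553 and 19554 are at its top.

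Rasd2 was also the 1 gene of the 9 with an unadjusted p below 0.05 between the sexes in edgeR, against 6.70% of all genes. It ranged from 205 to 318 normalized CPM in 8 females and from 116 to 247 in 9 males, so that the sexes overlapped. The log2 difference was 0.49 (SE 0.15, 95% interval 0.17 to 0.81), a fold of 1.40, and it did not pass (edgeR adjusted p = 0.575). edgeR and DESeq2 called 0 of the 9 genes between the sexes, while edgeR called 0.0689% of all genes and DESeq2 26 of 33091. The striatal markers had higher estimates in females for 13 of 13 genes, 12 of them with an unadjusted p below 0.05 and 0 called by edgeR, at a median log2 difference of 0.44, and the medians of their sum were 2153 in females and 1922 in males. Other lists leaned to 1 side as well, with 0 genes called. In females 10 of 10 excitatory neuron markers were lower (median -0.15). Oligodendrocyte markers were higher for 7 of 7 (median 0.22) and plaque-associated microglia markers for 8 of 8 (median 0.38). When the log2 striatal sum was added to the model, the Rasd2 sex difference was 0.10 (SE 0.055, edgeR adjusted p = 0.999), and the knockout differed from APP/PS1 mice by 0.015 (SE 0.054, 95% interval -0.099 to 0.13), an error well under that of 0.18 without the sum. This model was chosen after the data had been seen. As the sum followed Rasd2 with an r of 0.974, a smaller difference and error were bound to result. The model therefore cannot decide what the sex difference rests on, and its cause was not tested.

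A dependence of the Rasd2 sex difference on genotype was not established. In APP/PS1 mice the 3 females (224 to 318) lay above the 3 males (137 to 187), with striatal sums of 2116 to 2992 and 1123 to 1922. In WT mice (females 205 to 226, males 132 to 247) and knockout mice (females 213 to 259, males 116 to 230.2) the sexes overlapped. The effect of APP/PS1 on Rasd2 was 0.66 higher on the log2 scale in females than in males (SE 0.36) and that of the knockout 0.57 lower (SE 0.33, log2 difference -0.57). Neither interaction passed after adjustment in edgeR, and edgeR called 0 genes for either, with 4.05% and 3.32% of all genes at an unadjusted p below 0.05 and 0 of the 9 among them. DESeq2 called 2 and 1 genes, none of them among the 9.

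Mouse 19622 lay outside the range of the other 17 mice in 8 of the 9 substrates, and in 55.4% of the 17285 genes tested with all 18 mice. Hras, at 54.9 normalized CPM, was 0.521 of the mean of the other 5 WT mice, and Rasd2, at 39.9, was 0.202 of it. Nras (0.841) and Lmna (0.713) also lay below all 17 other mice. Inpp5e (1.95), Lmnb2 (1.61), Lmnb1 (1.60) and Pex19 (1.14) lay above all 17, and Dnaja1 (0.930) lay within their range. In the same mouse the sum of 10 cerebellar markers was 3257 normalized CPM against 50.9 to 124 in the others, that of 5 choroid plexus markers 1363, that of 7 oligodendrocyte markers 10507 and that of the 10 excitatory neuron markers 643. Those marker levels go against a frontal cortex label for this library, and their part in its substrate levels was not tested. With it in the fit, the log2 fold change of Hras in knockout against WT mice was 0.017, the opposite sign of the value without it (-0.11).

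**Figure D4:**
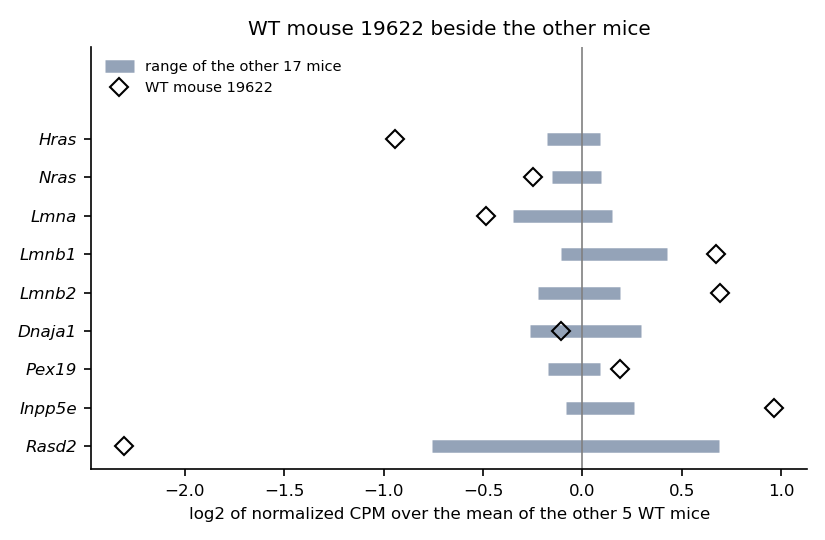
Log2 of normalized CPM over the mean of the other 5 WT mice (horizontal axis) for each of the 9 genes, with bars for the range of the other 17 mice and open diamonds for WT mouse 19622. The diamond lies left of the bar for Hras, Nras, Lmna and Rasd2, right of it for Lmnb1, Lmnb2, Pex19 and Inpp5e, and within it for Dnaja1.

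The proteins that work with these substrates were measured as lists. Counts are given for knockout against APP/PS1, APP/PS1 against WT and knockout against WT mice in this order, and are to be read against the shares of all genes that edgeR called (0.327%, 1.5% and 3.87%) or that had an unadjusted p below 0.05 (11.5%, 14.0% and 22.1%). Among 20 other genes of farnesylated proteins, 19 were tested, Gngt1, a photoreceptor G protein subunit, having no counts in the 17 mice. edgeR called 0 of the 19 in any genotype comparison, with 2, 2 and 4 at an unadjusted p below 0.05, which is no more than the shares of all genes. Ptp4a1 (0.242 to 1.18 normalized CPM, from 1 of its 2 gene IDs), Cenpe and Cenpf had low counts in these mice. Uchl1, a neuronal ubiquitin hydrolase, came closest, with 350.0 ± 16.4 normalized CPM in knockout, 398 ± 39.5 in APP/PS1 and 409 ± 20.0 in WT mice (edgeR adjusted p = 0.0537 against WT, log2 fold change -0.22). Dnaja2, a relative of Dnaja1, differed by 0.15 between knockout and APP/PS1 mice (edgeR adjusted p = 0.277).

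The enzymes that make and process the lipid anchor gave 0 of 9 called genes in edgeR in each comparison, with 1, 0 and 2 at an unadjusted p below 0.05. Of these, Fdps had low counts, at 0.891 to 2.23 normalized CPM in the mice of the tests. Fntb had the largest difference, as given above. Fnta, the α-subunit that FT shares with GGT, was 42.4 ± 2.69 in knockout and 39.0 ± 1.23 in WT mice (log2 fold change 0.12, edgeR adjusted p = 0.166).

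Of 19 exchange factors, GTPase-activating proteins and effectors of Ras, edgeR called 0 in each comparison, with 3, 1 and 8 at an unadjusted p below 0.05 beside 11.5%, 14.0% and 22.1% of all genes. Their estimates were lower in the knockout for 15 of 19 against APP/PS1 and for 15 of 19 against WT mice, with medians of -0.03 and -0.13 beside -0.0016 and 0.0053 for all genes, and in APP/PS1 against WT mice the estimates of 13 of 19 were lower, with a median of -0.09. Rasal1, a calcium-driven GTPase-activating protein, measured 81.2 ± 7.47 in knockout and 101 ± 13.5 in APP/PS1 mice (log2 fold change -0.31, edgeR adjusted p = 0.155). Map2k1, the kinase MEK1 between Raf and ERK, measured 238 ± 15.5 in knockout and 275 ± 10.2 in WT mice (log2 fold change -0.21, edgeR adjusted p = 0.0691). Against WT mice the estimates of 10 of 10 excitatory neuron markers were lower in the knockout as well, whereas against APP/PS1 mice 5 of 10 were, and their part was not tested. Rasgrf2 is in both lists, so that these counts are not wholly separate.

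Among 12 nuclear envelope partners of the lamins edgeR called 0 genes in each comparison, with 0, 2 and 2 at an unadjusted p below 0.05. Syne1, which encodes nesprin-1, a linker of nucleus and cytoskeleton, was 744 ± 49.9 in WT and 645 ± 56.6 in APP/PS1 mice (log2 fold change -0.20, edgeR adjusted p = 0.133). Lemd3, an inner nuclear membrane protein, differed by -0.17 between knockout and WT mice (edgeR adjusted p = 0.173).

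The 11 Hsp70 partners of Dnaja1 likewise held 0 called genes in edgeR in each comparison, with 1, 2 and 3 at an unadjusted p below 0.05, beside 11.5%, 14.0% and 22.1% of all genes. Hspa8, the constitutive Hsp70, measured 1509 ± 156 in knockout and 1203 ± 183 in APP/PS1 mice (log2 fold change 0.33, edgeR adjusted p = 0.164). Bag3, a co-chaperone in selective autophagy, was 9.93 ± 1.62 in APP/PS1 and 7.91 ± 0.812 in WT mice (log2 fold change 0.33, edgeR adjusted p = 0.243).

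Of 16 peroxins, 1 was called in knockout against WT mice, Pex6, which was lower in the knockout, where edgeR called 3.87% of all genes. Pex6, 1 of the ATPases that recycle the peroxisomal import receptor, measured 57.3 ± 3.27 in knockout, 62.0 ± 2.94 in APP/PS1 and 65.1 ± 2.004 in WT mice. The log2 fold change of knockout against WT mice was -0.18 (SE 0.049, edgeR adjusted p = 0.0423), and the groups overlapped. Between APP/PS1 and WT mice Pex10, a ubiquitin ligase of the import machinery, differed by -0.22 (edgeR adjusted p = 0.188). edgeR called 0 of the 16 in APP/PS1/FTnKO against APP/PS1 and in APP/PS1 against WT mice. At an unadjusted p below 0.05 it found 2, 4 and 1 of the 16 in the 3 comparisons, Pex6 being the 1 against WT, where 22.1% of all genes did.

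For 10 ciliary partners of Inpp5e edgeR called 0 genes in each comparison, with 0, 2 and 0 at an unadjusted p below 0.05. Ttbk2, a kinase that starts cilium assembly, was 83.8 ± 11.2 in APP/PS1 and 96.1 ± 6.58 in WT mice (edgeR adjusted p = 0.327). Cep290, a protein of the ciliary transition zone, was 14.3 ± 2.49 and 17.02 ± 1.33 in the same groups (edgeR adjusted p = 0.339).

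**Figure D5:**
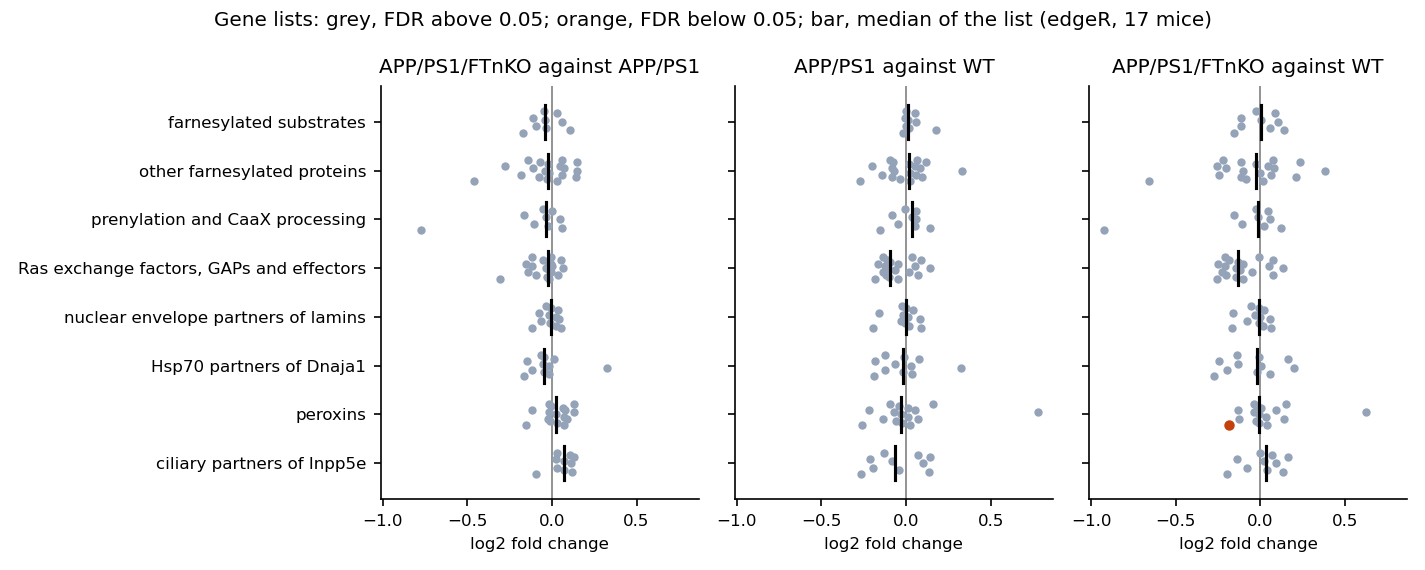
Log2 fold change (horizontal axis) of each tested gene in the 9 substrates and in 7 lists of related genes, 1 point per gene, in the 3 genotype comparisons, with a bar at the median of each list. The 1 coloured point is Pex6, lower in knockout than in WT mice (edgeR adjusted p = 0.0423), and the point farthest left is Fntb.

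The genes whose level followed each substrate most closely over the 17 mice differed between substrates. They are given with Pearson's r of the log2 values as a description, since they were picked as the highest of 17414 genes and share libraries, scaling and genotypes with them. Hras went with Pomgnt1 (0.857), Kcnip3 (0.785) and Nhp2 (0.783). Nras went with Desi2 (0.849), Nccrp1 (0.845) and Syt1 (0.820). Rasd2 had the closest company of the 9, in Pde1b (0.985), Scn4b (0.976) and Cd4 (0.976).

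For the lamins these genes were Coro1a (0.891), 1110008P14Rik (0.879) and A630072M18Rik (0.874) with Lmna, Terb1 (0.835), Il3ra (0.824) and Rras (0.793) with Lmnb1, and Ccdc71l (0.822), Gm12941 (0.817) and Gm44243 (0.796) with Lmnb2. Dnaja1 went with Arl8b (0.903), Ahsa1 (0.870) and Hspd1 (0.864), the last 2 being an Hsp90 activator and a mitochondrial chaperonin. Pex19 went with Rap2b (0.891), Jph3 (0.864) and Cplx2 (0.854), and Inpp5e with Acp6 (0.798) and Arhgap4 (0.770). Among the 9 substrates themselves the closest pair was Hras and Pex19 (r = 0.768 over 17 mice), followed by Nras and Lmnb2 (0.643) and by Hras and Lmna (0.561).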

How the data were processed

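The authors trimmed the reads, aligned them to GRCm38 and counted them per gene, and deposited raw counts for 55487 genes in 18 mice. The submitters' processing notes name Trimmomatic 0.33, FastQC 0.11.7, HISAT2 2.1.0 and featureCounts, of which the sources used here give neither version nor strand setting, and they list mm9 beside mm10. Gene positions and coding ends came from GENCODE vM21 (GRCm38), which covered 99.5% of the gene IDs. Counts were analysed in R 4.3.3 with edgeR 4.0.16 (TMM, filterByExpr at a minimum of 10, a quasi-likelihood test, sex and genotype, 17 mice in 1 fit) and Benjamini-Hochberg adjustment over 17414 genes at 0.05. Normalized CPM are counts divided by the TMM-scaled library size. WT mouse 19622 was kept apart; its values were scaled with all 18 mice. On simulated data for APP/PS1/FTnKO against APP/PS1 (17241 genes), edgeR recovered 91% of changes of 1 and 61% of changes of 0.5 in log2, with 1.94% of calls false, and DESeq2 (17414 genes) 93% and 67% with 11.6% false. Smaller changes, of the size seen for Hras, Lmna and Pex19, and differences by sex or tissue were not simulated. These rates therefore do not apply to them.

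Alternatives were DESeq2 1.42.0, RLE scaling, no filter, a minimum count of 50, no sex term, the RNA integrity number as covariate, only the 2 genotypes compared, all 18 mice and each mouse left out. DESeq2 on all 18 mice and the striatal sum as a covariate were added after the data had been seen. The 9 genes and all lists were chosen with earlier results of these data known. Named besides the 9 are, per list, genes past the threshold and the 2 with the smallest p, per substrate the 3 genes most like it, and Fntb, App and Prnp as label checks and the striatal markers beside Rasd2; 1 gene of this rule is not reported here. Other cell type markers, and Gngt1 as the list gene without counts, were named after their values were seen. So were Ptp4a1, Cenpe, Cenpf and Fdps as list genes with low counts, and Rasgrf2 as a gene in more than 1 list. Prnp rose with the transgenes (log2 fold change 1.58, edgeR adjusted p = 2.7e-09, in APP/PS1 against WT mice). Each mouse is 1 library, grouped by its labelled genotype.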

Additional observations from a re-analysis of the deposited data

Results flagged for a closer look

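Of 36 groups examined (each of the 9 genes in each genotype, and in the WT group with and without mouse 19622), 7 had a mouse farther from its group than Dixon's test at 95% allows, and chance flags about 1 in 20 groups. WT mouse 19622 accounts for 5 of them. This mouse had already been set apart, so that its flags could be foreseen and the chance rate does not apply to them. In the 6 WT mice it was lowest in Hras, at 54.9 normalized CPM with the next mouse at 101.0, and highest in Lmnb1 (11.6, next 7.93), Lmnb2 (44.6, next 29.3), Pex19 (91.5, next 83.1) and Inpp5e (69.99, next 38.8). APP/PS1 female 19554 was lowest in Lmnb2, at 23.6 with the next mouse at 27.3. APP/PS1/FTnKO male 19720 was lowest in Rasd2, at 116 with the next mouse at 207, and it also had the lowest striatal sum of the 17 mice, 1086. The part of tissue content in these values was not tested.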

How the results depend on the processing

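None of the 9 genes was called in a genotype comparison under any alternative, except Pex19 in APP/PS1/FTnKO against WT mice with DESeq2 on all 18 mice, where 1 of the 9 passed (log2 fold change -0.15, DESeq2 adjusted p = 0.0494). The estimates of Hras, Lmna and Pex19 stayed below 0 in APP/PS1/FTnKO against APP/PS1 mice in all of them, with edgeR adjusted p of 0.142 to 0.469, 0.258 to 0.502 and 0.203 to 0.513 when each mouse was left out. The counts of all genes moved more. In APP/PS1/FTnKO against APP/PS1 mice they were 57 in the main test, 246 with DESeq2, 36 with DESeq2 on 18 mice, 261 with the RNA integrity number, 2 with all 18 mice, 104 without a filter and 5 with only the 2 genotypes, and 10 (without 19554) to 81 (without 16975) when each mouse was left out. In APP/PS1 against WT mice they were 261, then 454 with DESeq2, 404 with DESeq2 on 18 mice, 84 with the RNA integrity number and 452 without a filter, and 124 to 465 with each mouse left out. In APP/PS1/FTnKO against WT mice they were 674, then 1304 with DESeq2, 388 with the RNA integrity number and 261 with all 18 mice, and 206 to 987 with each mouse left out. DESeq2 called 26 genes between the sexes against 12 by edgeR, and 1 and 2 genes for the interactions, where leaving out mice gave 0 to 1. The cause of these moves was not tested.

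Signs also turned, for estimates called in none of those settings. Most were near 0 in the main test, but in APP/PS1/FTnKO against WT mice Hras (-0.11), Lmnb1 (0.14) and Inpp5e (0.09) were not, and they turned with WT mouse 19622 in the fit (Lmnb1 in DESeq2 only). For APP/PS1 against WT mice, Hras was 0.13 with all 18 mice (DESeq2 0.13), 3.9e-04 without a filter, 0.0049 at a minimum count of 50, 0.0014 without sex and 2.4e-04 with only the 2 genotypes; Dnaja1 was 0.016 with 18 mice (DESeq2 0.013), 0.0012 at a minimum of 50, 0.11 with the RNA integrity number and 0.0056 with only the 2 genotypes; Inpp5e was -0.13 with 18 mice in both tools; Lmnb2 was 6.8e-05, 0.0047, 0.098 and 0.0030 without a filter, at a minimum of 50, with the RNA integrity number and with only the 2 genotypes; and Rasd2 was -0.069 with the RNA integrity number. For APP/PS1/FTnKO against WT mice, all 18 mice gave Hras 0.017, Nras 0.019, Lmnb2 -0.080 and Inpp5e -0.10, DESeq2 on them Hras 0.010, Nras 0.014, Lmnb1 -1.7e-04, Lmnb2 -0.084 and Inpp5e -0.11, and the RNA integrity number Nras 0.0067 and Rasd2 -0.066. Rasd2 in APP/PS1/FTnKO against APP/PS1 mice was 0.0029 with the RNA integrity number and 0.015 with the striatal sum.

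With each mouse left out, the estimates that changed sign were, for APP/PS1 against WT mice, Hras (-0.023 to 0.029), Nras (-0.014 to 0.032), Lmna (-0.014 to 0.052), Lmnb2 (-0.024 to 0.040), Dnaja1 (-0.080 to 0.045), Pex19 (-0.039 to 0.0048) and Rasd2 (-0.020 to 0.21), for APP/PS1/FTnKO against APP/PS1 mice Lmnb1 (-0.084 to 0.015) and Rasd2 (-0.15 to 0.042), and for APP/PS1/FTnKO against WT mice Nras (-0.052 to 0.0043) and Rasd2 (-0.11 to 0.17). Pearson's r of Rasd2 and the striatal sum was 0.965 to 0.990 in all 20 alternatives. No paired analysis was possible because each mouse has its own number and no label ties mice of different genotypes. With 5 or 6 mice a group, the 95% intervals given for the genes are the limit of what these counts show.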
